A study of Mus musculus with 12 samples.

Results

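Testes from F1 mice of a lncRNA5251 knockdown lineage were compared with testes from the lineage of the matching control vector. The knockdown group (titled F1_5251KD_T1 to F1_5251KD_T3) comes from males injected in the testis with an LV3 lentivirus that carried short hairpin RNAs to deplete lncRNA5251, a long RNA that encodes no protein. The control group (3NC) comes from males given the LV3 vector with a control hairpin. Per the study's methods, the injected males were ICR mice of 4 weeks, and their offspring were sampled at 8 weeks. The sample labels spell the strain "IRC mouse", and the series text puts the virus in the F1 testes themselves, so it is unclear whether the cells sampled here ever held the hairpins. Both groups descend from virus-injected males, and no lineage without virus was used. The other 6 libraries of the series, named only where a value needs them, come from a lineage with lncRNA5251 overexpression and from 5NC, its vector control. Each group has 3 of the 12 libraries, and nothing states that they came from separate animals, so the spread between libraries may be partly technical. The comparison covers the 16083 of 20788 genes (77.4%) that had 10 or more reads in at least 3 of these 6 libraries. The libraries held 15188804 to 15511362 estimated reads, so that the deepest exceeded the shallowest by a factor of 1.02. The question was which genes, sorted by function and by the testis cell they mark, differed between the knockdown lineage and its control.

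The adult mouse testis makes sperm in seminiferous tubules. Spermatogonia divide by mitosis, spermatocytes pair and recombine their chromosomes in meiosis, and round spermatids then elongate, replace histones with transition proteins and protamines, and build a flagellum. Sertoli cells nurse the germ cells and seal the tubule with junctions known as the blood-testis barrier. Between the tubules, Leydig cells take up or make cholesterol and turn it into testosterone, and macrophages and blood vessels lie beside them. RNA from whole testis mixes all of these cells, so fewer cells of a type and less RNA per cell cannot be told apart in these data.

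The hairpins are shown because they define the knockdown virus. Each is 21 bases long and matched the sense strand of a single transcript out of 141767 in GENCODE (build GRCm38), that of Purb, a gene for a DNA- and RNA-binding protein. The control hairpin, of 19 bases, matched none. The matches lie in the 3′ untranslated region of this gene, which is read from the minus strand, at chr11:6468416-6468436, chr11:6467969-6467989 and chr11:6468248-6468268 in this order.
shlncRNA5251 KD #1: gctgggacttaatgtccttct
shlncRNA5251 KD #2: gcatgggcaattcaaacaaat
shlncRNA5251 KD #3: gcttattatgcatcgtaaacc

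lncRNA5251 has no row of its own name in the table, and reads of Purb may come from either RNA. Purb was at 77.0, 98.2 and 93.6 CPM (read counts scaled to the size of the library, by the TMM method) in 3NC replicates 1, 2 and 3, and at 84.2, 78.9 and 79.6 CPM in the knockdown group. The knockdown libraries lay within the range of the controls. The means were 89.6 ± 11.2 CPM in 3NC and 80.9 ± 2.91 CPM in the knockdown group (SD, n = 3 each), and a two-sided exact permutation test gave p = 0.4, where 0.1 is the smallest p that 3 against 3 libraries allow. The table therefore gives no direct check that the target was lowered in these testes.

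A pair of libraries, 3NC replicate 2 and knockdown replicate 1, stood apart from the other 4. The first principal component of the 6 libraries held 67.6% of the variance and placed this pair at 57.5 and 40.3, against -20.1 to -31.9 for the others. Genes of white blood cells differed along the same split. The 19 macrophage genes summed to 1209 CPM in 3NC replicate 2 and 1379 CPM in knockdown replicate 1, and to 536 to 577 CPM in the other 4 libraries. Csf1r, the receptor for the macrophage growth factor, was at 46.8 and 54.0 CPM in this pair and at 9.37 to 13.6 CPM elsewhere. Ptprc, the pan-leukocyte antigen CD45, was at 94.8 and 71.7 CPM in the pair and at 2.90 to 6.91 CPM in the others. Cd3e, a part of the T cell receptor complex, was below the read minimum, with 4.10 and 3.60 CPM in the pair and at most 0.465 CPM elsewhere. Since each group holds such a library, results are also given without both of them. The second component held 13.2% of the variance and did separate the groups, with the knockdown group at 11.9 to 16.0 and 3NC at -0.5, -15.4 and -25.3.

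**Figure D1:**
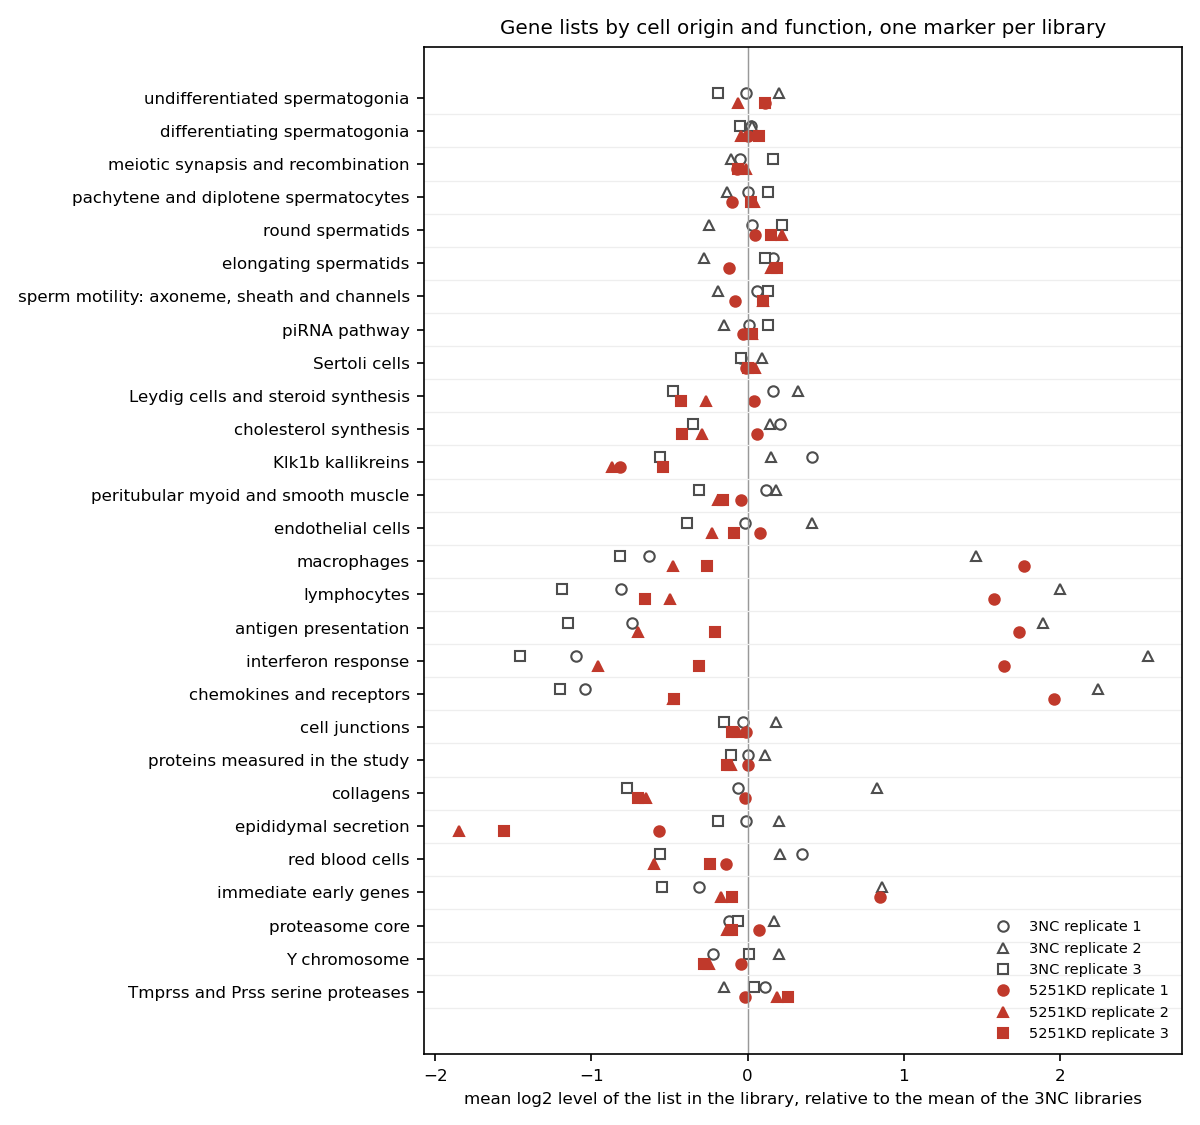
Mean log2 level of the tested genes of each of 28 lists in each of the 6 libraries, relative to the mean of the 3NC libraries (x axis, log2 units). Open grey markers are 3NC and filled red markers the knockdown group, with a circle, triangle and square for replicates 1, 2 and 3. The lists of immune genes split 3NC replicate 2 and knockdown replicate 1 from the rest. For the epididymal list only the 9 genes above the read minimum are drawn, some of which passed it through the controls.

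Across the transcriptome the groups differed little. By edgeR's quasi-likelihood test with Benjamini-Hochberg adjustment, 0 of 16083 genes (0.0%) passed an adjusted p of 0.05, so no gene below is said to have changed, and differences are given as values. At an unadjusted p under 0.05 there were 411 higher genes (2.56%) and 488 lower genes (3.03%), 899 in all, where 804 would be expected at that threshold if no gene differed. In 809 genes (5.03%) all 3 knockdown libraries lay above all 3 controls, and in 1004 genes (6.24%) they lay below. DESeq2, another count test, passed 15 genes (0.0933%). The 7 higher were Tmprss11a, Cyp21a1, Gm1993, Ston2, 9530057J20Rik, Jchain and Arid3a, and the 8 lower Gm15114, Klk1b21, Klk1b27, Rag1, Rarres1, Itgb3bp, Gm15127 and Ptprt, all among the genes of smallest p by edgeR described below. The median log2 fold change of all genes, knockdown minus 3NC, was -0.02, and 80% of genes lay between -0.34 and 0.29. A log2 change of 1 or more was seen in 85 genes, and of -1 or less in 167. The median 95% interval reached 0.38 to either side of the estimate, from 0.24 for genes above 100 CPM to 0.97 for genes under 1 CPM, so smaller differences in rare transcripts were not detectable at this depth.

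**Figure D2:**
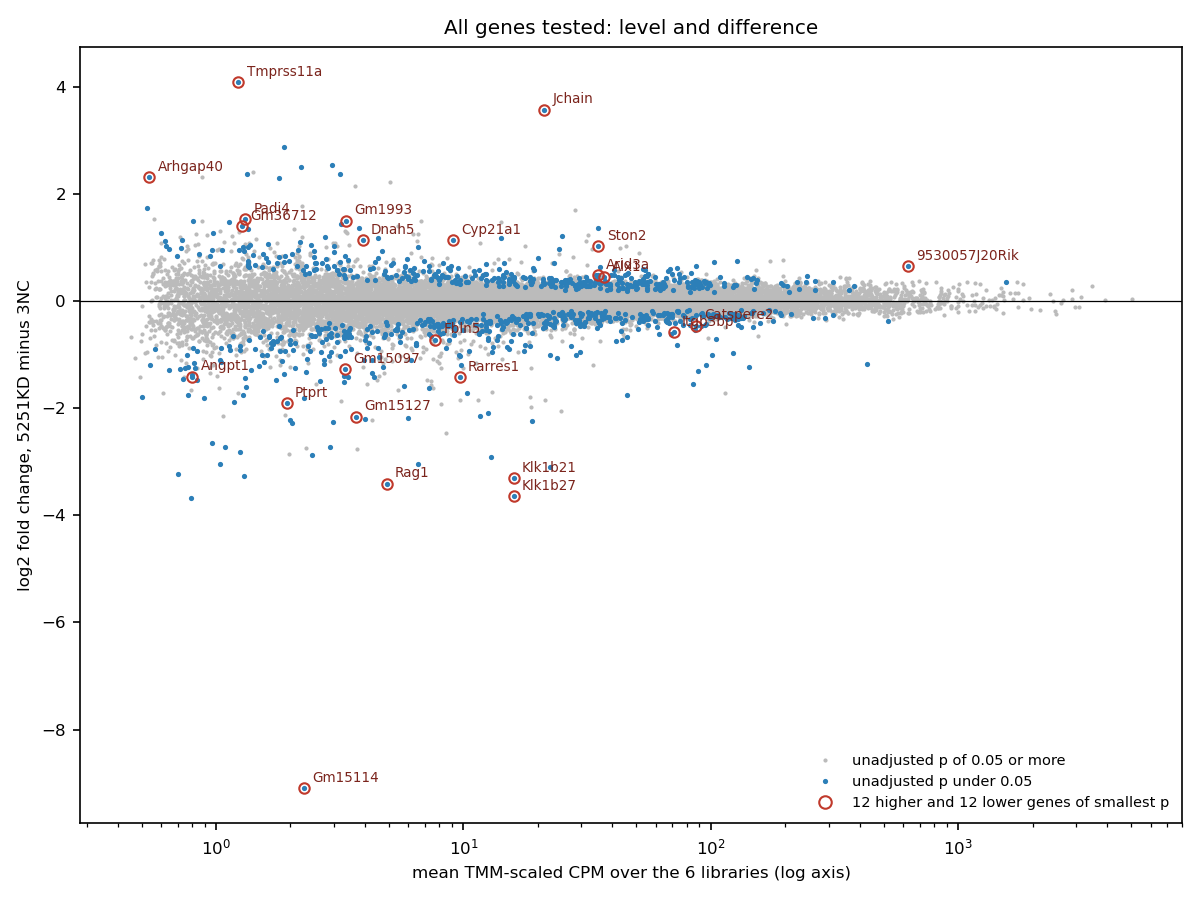
Log2 fold change, knockdown minus 3NC (y axis), against mean level in TMM-scaled CPM over the 6 libraries (x axis, log scale) for all 16083 genes tested. Blue points have an unadjusted p under 0.05, and red circles mark the 12 higher and 12 lower genes of smallest p, of which Tmprss11a (4.08) lies highest. The fitted value of Gm15114 depends on the prior count, because all 3 knockdown libraries are at 0.

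Genes of several kinds led the higher side by p. Tmprss11a (gene ID 194597, chromosome 5, 86410410 to 86469175), a serine protease anchored in the cell membrane, was at 0.0661, 0.186 and 0.135 CPM in 3NC and at 1.90, 1.93 and 3.17 CPM in the knockdown group. All knockdown libraries lay far above every control value, although the control values rest on a few reads each. Tmprss11a passed the read minimum only through the knockdown libraries, so its rank by p is not read as support. The log2 fold change was 4.08 (95% interval 2.90 to 5.26) and the adjusted p, by edgeR, 0.147, the lowest of all genes, while DESeq2 passed it at 0.00258. In the other lineages Tmprss11a was at 0.0793 to 0.466 CPM in every library. Jchain, which links the subunits of IgA and IgM and is made by antibody-secreting plasma cells, was at 0.859, 3.54 and 5.46 CPM in 3NC and at 89.8, 18.2 and 9.17 CPM in the knockdown group. The log2 difference of 3.57 was 2.12 without the pair that stood apart. Pou2af1, a B cell co-activator of transcription chosen after its values were seen, was at 0.331 to 0.994 CPM in 3NC and at 7.14, 0.598 and 1.21 CPM in the knockdown group, so that replicate 1 carried its difference. The share of B-lineage cells in Jchain's difference was not tested.

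Other leading higher genes differed by less and were at steadier levels. Ston2, an adaptor for endocytosis of synaptic vesicle proteins, was at 20.2, 18.8 and 30.5 CPM in 3NC and at 35.1, 44.7 and 61.5 CPM in the knockdown group, a log2 fold change of 1.02 (SE 0.21). 9530057J20Rik, the most abundant of the 12, was at 509, 387 and 567 CPM in 3NC and at 782, 721 and 792 CPM in the knockdown group, a log2 fold change of 0.65 (SE 0.14). Neither gene overlapped between groups. The transcription factors Arid3a, which binds AT-rich DNA, and Alx1, a homeodomain protein of facial development, had log2 fold changes of 0.48 and 0.44. Dnah5, the heavy chain of the outer dynein arm that drives motile cilia, was at 1.92, 2.11 and 3.30 CPM in 3NC and at 5.50, 6.51 and 4.18 CPM in the knockdown group. Padi4, which converts arginine to citrulline in proteins, and Arhgap40, by its family a GTPase-activating protein, were low throughout, at up to 2.84 CPM. Gm36712 and the X-linked Gm1993 complete the 12, with log2 fold changes of 1.40 and 1.5. For Gm36712, 5NC at 1.57 to 2.12 CPM was at the knockdown level of 1.52 to 2.29 CPM. Adjusted p-values of these genes were 0.699 to 0.766 by edgeR.

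The lower genes with the smallest p included a recombinase, a phosphatase and matrix or vessel genes. Ptprt, a receptor tyrosine phosphatase, was at 2.38, 3.60 and 3.17 CPM in 3NC and at 0.758, 0.930 and 0.742 CPM in the knockdown group, a log2 fold change of -1.90 (95% interval -2.70 to -1.11). The 3NC libraries stood above all others, since Ptprt was at 0.374 to 1.27 CPM in 5NC, around the knockdown values, and at 1.05 to 1.43 CPM with overexpression. Itgb3bp, a centromere protein, was at 74.7, 82.5 and 96.6 CPM in 3NC and 50.7, 57.0 and 62.6 CPM in the knockdown group. Rarres1, a gene induced by retinoic acid, was at 18.4, 15.5 and 8.29 CPM in 3NC and at 4.87, 5.18 and 5.67 CPM in the knockdown group. Angpt1, the ligand of the vessel receptor Tie2, and Fbln5, an elastic fibre protein, had log2 fold changes of -1.41 and -0.72 with no overlap. Rag1, which cuts DNA to assemble antigen receptor genes, was at 14.0 and 11.7 CPM in 3NC replicates 1 and 2 but at 1.15 CPM in 3NC replicate 3, beside 0.632, 1.13 and 0.742 CPM in the knockdown group. The log2 difference of -3.41 therefore rests on a pair of control libraries, and 5NC was at 1.41 to 2.36 CPM. Catspere2, an accessory subunit of the sperm calcium channel CatSper, was at 101, 110 and 92.3 CPM in 3NC and at 70.1, 76.8 and 73.5 CPM in the knockdown group. Its paralogue Catspere1 was at 89.6, 103 and 74.7 CPM in 3NC and at 60.3, 67.0 and 68.7 CPM in the knockdown group, and reads may be shared between these copies.

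**Figure D3:**
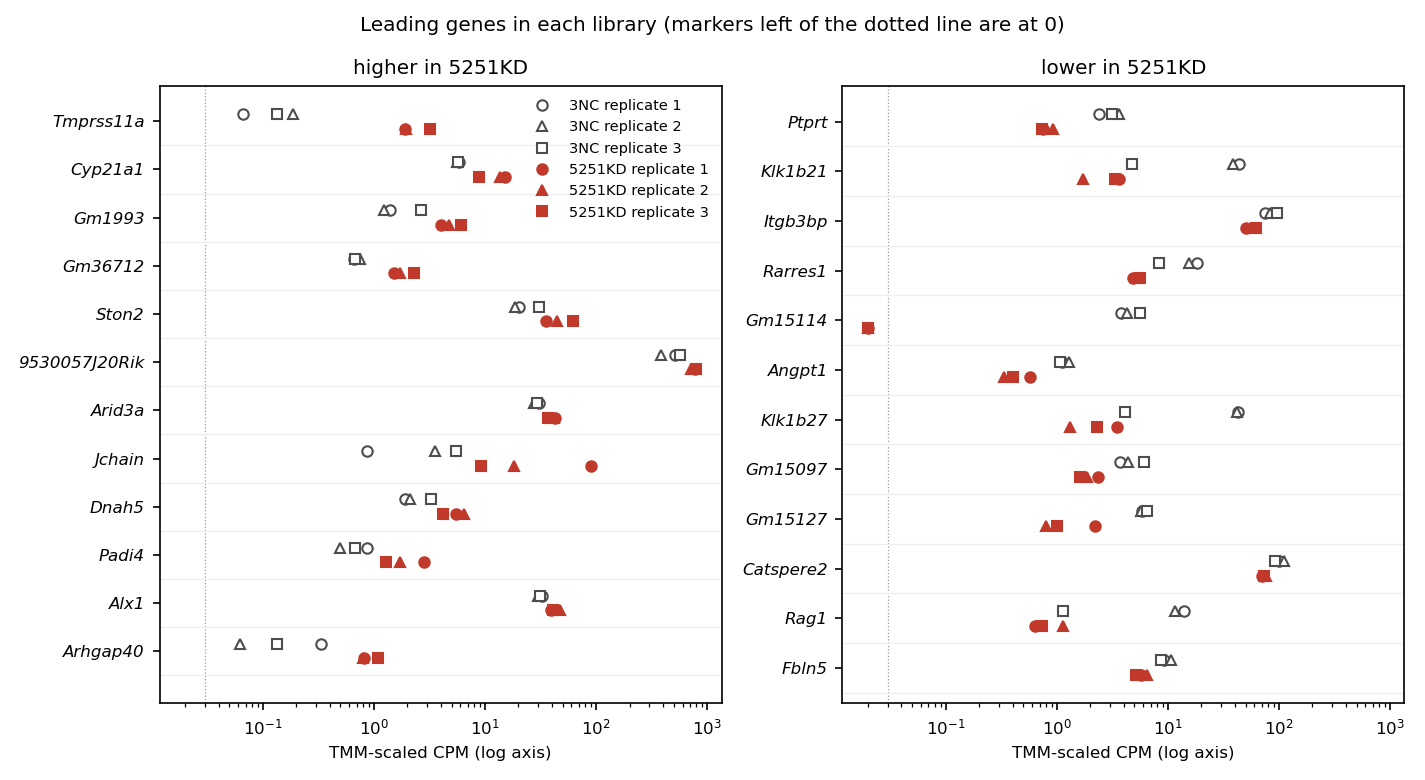
TMM-scaled CPM (x axis, log scale) of the 12 higher and 12 lower genes of smallest p in each of the 6 libraries. Open grey markers are 3NC and filled red markers the knockdown group, and markers left of the dotted line are at 0. For Klk1b21, Klk1b27 and Rag1 the square of 3NC replicate 3 lies near the knockdown markers, while Tmprss11a and Ptprt show a clear gap.

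Among the lower genes were 3 members of a family on the X chromosome whose copies can hardly be told apart by short reads. Ott, a multicopy gene of ovary and testis, has 11 tested copies between 147789653 and 149826694, and their transcripts are 98.1% to 100% identical in pairs. Gm15114 was at 3.77, 4.29 and 5.59 CPM in 3NC and at 0 in all knockdown libraries, that is 208 reads against 0, or at least 69.3-fold lower against a floor of 3 reads over the group. Gm15127 was at 5.82, 5.72 and 6.54 CPM in 3NC and at 2.21, 0.797 and 1.01 CPM in the knockdown group. Gm15097 had a log2 fold change of -1.27. Not all copies went the same way, since Gm15128 was at 1.92, 2.42 and 2.02 CPM in 3NC and at 4.99, 6.57 and 4.86 CPM in the knockdown group. Of the 11 copies, 6 were lower and 1 was higher with no overlap between groups, beside 6.24% and 5.03% of all genes. Gm15114 passed the read minimum only through the controls, and the copies may share reads. These counts are therefore not read as a result, and the sum below includes Gm15114. Reads given to copies outside the 11 tested, or left out as ambiguous, would change a sum over the copies. The sum over these 11 does not depend on how reads were split within them. It was 41.7, 47.0 and 61.1 CPM in 3NC and 23.8, 27.0 and 26.4 CPM in the knockdown group, with means of 50.0 ± 10 and 25.7 ± 1.70 CPM (SD, n = 3 each). The log2 ratio of the sums was -0.96, and -1.07 to -0.79 with each library left out in turn. The sum was 47.3 to 57.0 CPM in 5NC and 32.6 to 38.8 CPM with overexpression, where Gm15114 was at 0 to 2.43 CPM. The copies were chosen after their values were seen, so no test is given.

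Leydig cell genes differed in both directions. The list of 21 had a median log2 fold change of -0.27, against -0.02 over all genes, with 1 higher and 6 lower at an unadjusted p under 0.05, beside 2.56% and 3.03% of all genes. Cyp21a1 (gene ID 13079, chromosome 17, 34801348 to 34804426), the steroid 21-hydroxylase that is best known from the adrenal cortex, was at 5.82, 5.59 and 5.66 CPM in 3NC and at 15, 13.6 and 8.84 CPM in the knockdown group. The controls were almost equal and every knockdown library was above them, with a log2 fold change of 1.13 (95% interval 0.72 to 1.54) and an adjusted p of 0.571 by edgeR and 0.00258 by DESeq2. It was at 4.58 to 5.63 CPM in 5NC and at 8.12 to 8.94 CPM with overexpression. A pseudogene copy of Cyp21a1 lies close to it, and reads may be shared.

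Lhcgr and Star were lower in each knockdown library, while Cyp11a1 and Cyp17a1 overlapped between groups. Lhcgr, the receptor for luteinizing hormone, was at 15.9, 14.8 and 10.3 CPM in 3NC and at 5.88, 7.10 and 4.86 CPM in the knockdown group. Star, which carries cholesterol into mitochondria, was at 171, 188 and 131 CPM in 3NC and at 116, 82.1 and 51.5 CPM in the knockdown group. Neither overlapped between groups, and their log2 fold changes were -1.20 (95% interval -1.85 to -0.55) and -0.97 (-1.59 to -0.35). In 5NC, Lhcgr was at 13.3 to 17.2 CPM and Star at 100 to 175 CPM, which overlaps the knockdown libraries for Star. Cyp17a1, which forms the androgen precursors, was at 747 and 716 CPM in 3NC replicates 1 and 2, but at 308 CPM in 3NC replicate 3, within the 183 to 308 CPM of the knockdown group. Cyp11a1, which cuts the cholesterol side chain, was at 236, 252 and 81.2 CPM in 3NC and at 180, 112 and 67.4 CPM in the knockdown group. Control replicate 3 was the lowest control library for both. Prlr, the prolactin receptor, Fdx1, the electron carrier of mitochondrial cytochromes P450, and Hao2, an oxidase of hydroxy acids, had log2 fold changes of -0.73, -0.37 and -0.61 with unadjusted p of 0.0353, 0.0186 and 0.0387.

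Other Leydig genes did not share this. Insl3, the hormone that guides testis descent, was at 741, 518 and 394 CPM in 3NC and at 704, 642 and 625 CPM in the knockdown group. Hsd3b1, which makes progesterone from pregnenolone, was at 94.6, 104 and 104 CPM in 3NC and at 88.3, 135 and 119 CPM in the knockdown group. Nr5a1, the master regulator of steroid genes, and Hsd17b3, which completes testosterone, had log2 fold changes of 0.14 (-0.28 to 0.56) and -0.11 (-0.66 to 0.45). The mean log2 level of the list was 0.16, 0.32 and -0.48 in 3NC and 0.04, -0.27 and -0.43 in the knockdown group, so the libraries of both groups ranged over similar levels and 3NC replicate 3 was the lowest of all. Leaving out 1 library moved the list's median between -0.21 (3NC replicate 1) and -0.48 (3NC replicate 3), and to -0.42 without knockdown replicate 1.

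**Figure D4:**
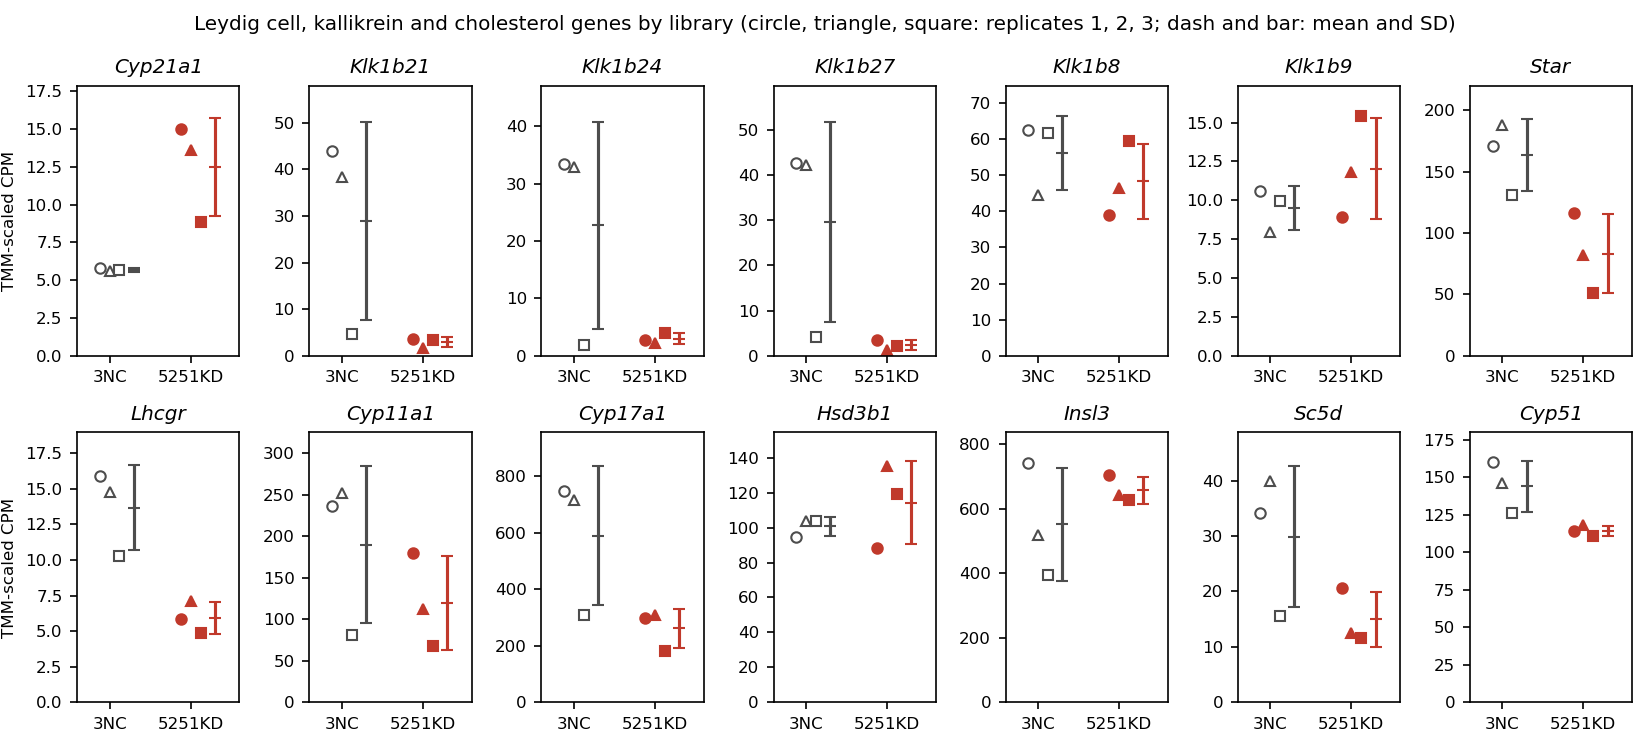
TMM-scaled CPM (y axis, from 0) of 14 genes of Leydig cells, kallikreins and cholesterol synthesis in 3NC (open grey) and the knockdown group (filled red), with a circle, triangle and square for replicates 1, 2 and 3. The dash and bar give the mean and SD of 3 libraries. Star, Lhcgr and Cyp51 lie lower in each knockdown library, Cyp21a1 higher, and in Klk1b21, Klk1b24 and Klk1b27 the square of 3NC replicate 3 sits with the knockdown libraries.

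Of the Klk1b kallikreins, a cluster of secreted serine proteases on chromosome 7, Klk1b21, Klk1b24 and Klk1b27 are best known from Leydig cells. Klk1b21 was at 43.9, 38.3 and 4.72 CPM in 3NC and at 3.67, 1.73 and 3.37 CPM in the knockdown group. Klk1b27 was at 42.6, 42.1 and 4.11 CPM in 3NC and at 3.48, 1.33 and 2.29 CPM in the knockdown group. Klk1b24 was at 33.4, 32.9 and 1.95 CPM in 3NC and at 2.84, 2.19 and 4.05 CPM in the knockdown group. In all 3 genes the first pair of controls was high and 3NC replicate 3 was at the level of the knockdown lineage. Summed, they were at 120, 113 and 10.8 CPM in 3NC and at 9.99, 5.25 and 9.71 CPM in the knockdown group, a log2 ratio of -3.29. Leaving out 3NC replicate 3 takes away the control at the knockdown level, and edgeR then passed all 3 genes, with adjusted p of 0.0009 (Klk1b24), 0.00157 (Klk1b21) and 0.0206 (Klk1b27). With any other single library left out, the adjusted p of Klk1b21 and Klk1b27 was 0.458 to 0.977. With all libraries, DESeq2 passed Klk1b21 (adjusted p 0.00474) and Klk1b27 (0.00743). The sum was 116 to 129 CPM in 5NC, but 25.1, 44.7 and 60.9 CPM with overexpression, where all 3 libraries also lay below 5NC. Klk1b22, below the read minimum, went the same way with 203 reads in 3NC and 11 in the knockdown group. The other 8 tested kallikreins summed to 104, 73.2 and 104 CPM in 3NC and to 68.4, 82.4 and 104 CPM in the knockdown group, a log2 ratio of -0.14. Of these 8, 3 were positive and 5 negative, from -0.66 to 0.34, and all overlapped between groups.

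The promoters of Klk1b21, Klk1b24 and Klk1b27 are shown because they share sequence, with that of Klk1b8, the kallikrein highest in CPM, beside them. Each run covers 250 bases before to 50 after the start site on the plus strand of chromosome 7 (RefSeq, GRCm38.p6). Capitals mark runs of 12 or more bases that the first 3 promoters share and that are absent from the promoters of Klk1b3, Klk1b8 and Klk1b9, a choice made after the values were seen.
Klk1b21, chr7:44102042-44102341: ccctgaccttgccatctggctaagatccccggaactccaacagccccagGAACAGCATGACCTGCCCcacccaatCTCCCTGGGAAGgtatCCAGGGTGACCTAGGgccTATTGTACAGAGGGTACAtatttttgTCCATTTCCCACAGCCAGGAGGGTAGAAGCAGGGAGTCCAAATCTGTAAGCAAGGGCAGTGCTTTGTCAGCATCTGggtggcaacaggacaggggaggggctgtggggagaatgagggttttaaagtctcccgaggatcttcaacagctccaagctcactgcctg
Klk1b24, chr7:44187986-44188285: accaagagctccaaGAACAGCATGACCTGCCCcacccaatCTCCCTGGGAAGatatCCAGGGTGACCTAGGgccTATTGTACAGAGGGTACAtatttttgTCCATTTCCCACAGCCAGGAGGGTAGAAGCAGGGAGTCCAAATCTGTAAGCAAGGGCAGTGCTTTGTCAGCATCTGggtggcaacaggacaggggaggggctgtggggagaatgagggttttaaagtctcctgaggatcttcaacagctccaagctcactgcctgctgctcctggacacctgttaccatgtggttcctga
Klk1b27, chr7:44052040-44052339: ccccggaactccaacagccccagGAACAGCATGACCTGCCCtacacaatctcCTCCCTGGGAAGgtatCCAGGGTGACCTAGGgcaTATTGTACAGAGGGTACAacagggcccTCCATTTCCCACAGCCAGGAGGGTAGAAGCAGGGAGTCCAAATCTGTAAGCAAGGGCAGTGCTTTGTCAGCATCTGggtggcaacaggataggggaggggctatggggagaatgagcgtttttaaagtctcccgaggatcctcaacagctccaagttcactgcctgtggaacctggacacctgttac
Klk1b8, chr7:43950416-43950715: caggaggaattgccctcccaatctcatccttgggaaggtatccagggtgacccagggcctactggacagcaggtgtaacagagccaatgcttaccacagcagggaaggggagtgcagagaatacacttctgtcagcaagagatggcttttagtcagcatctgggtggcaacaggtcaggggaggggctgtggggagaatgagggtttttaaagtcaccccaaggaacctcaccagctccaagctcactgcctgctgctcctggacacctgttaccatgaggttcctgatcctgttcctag

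The capitals cover 139 bases in each of the 3, and pairs of these promoters are 91.3% to 97.7% identical. Against Klk1b8 they are 83.3% to 86.5% identical. Klk1b22 does not fall in with them, as its promoter holds 15 of the shared bases and is 80.7% to 82.1% identical to the 3. The letters AAGGTCA, a binding motif known for the steroid regulator Nr5a1, were searched on both strands. Of these 7 windows only that of Klk1b21 holds them, as do 4.72% of 32851 promoters of this length. The match lies at the very start of the Klk1b21 window. The Klk1b24 and Klk1b27 windows begin past the matching bases, so the corresponding stretch of these genes was not searched. A shared run is a description of these windows and names no factor. Transcripts of the 3 genes are 93.3% to 94.1% identical in pairs, and the RefSeq span of Klk1b21 (44004616 to 44106583) includes Klk1b27, so reads may have been shared among them.

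Genes of cholesterol synthesis leaned lower. Their median log2 fold change was -0.24 over 22 genes, with 18 below 0 and 4 above, and 2 were lower at an unadjusted p under 0.05, beside 3.03% of all genes. Leaving out 1 library moved the median between -0.13 (3NC replicate 1) and -0.43 (knockdown replicate 1). Cyp51, which demethylates lanosterol, was at 160, 146 and 126 CPM in 3NC and at 114, 118 and 111 CPM in the knockdown group, and 5NC was lower still at 92.0 to 109 CPM. Sc5d, a late desaturase, was at 34.2, 39.9 and 15.6 CPM in 3NC and at 20.7, 12.5 and 11.7 CPM in the knockdown group. Fdft1, which makes squalene and was the highest of the list in CPM, had a log2 fold change of 0.04 (95% interval -0.14 to 0.22). As for Leydig genes, 3NC replicate 3 was the lowest control library, with a mean log2 level of -0.35 against 0.21 and 0.14, and the knockdown levels of 0.06, -0.29 and -0.42 overlapped the controls.

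Germ cell genes differed little at each stage. The 16 tested genes of undifferentiated spermatogonia and the 15 of differentiating ones both had medians of -0.02. Zbtb16, a repressor that keeps stem cells undifferentiated, was at 5.82, 4.23 and 3.10 CPM in 3NC and at 5.69, 6.11 and 7.83 CPM in the knockdown group, and Crabp1, a carrier of retinoic acid, had a log2 fold change of 0.60 (0.07 to 1.14). Gfra1, the receptor for the stem cell factor Gdnf, and Kit, the receptor of dividing spermatogonia, were level at -0.11 (-0.47 to 0.25) and 0.02 (-0.32 to 0.35).

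Of 33 genes of meiotic synapsis and recombination, 6 were lower and 1 was higher with no overlap between groups, beside 6.24% and 5.03% of all genes, and the median was -0.11. At an unadjusted p under 0.05, 2 were higher and 0 lower, beside 2.56% and 3.03% of all genes. Smc1b, a meiotic cohesin, was at 228, 266 and 291 CPM in 3NC and at 222, 227 and 227 CPM in the knockdown group. Sycp2, part of the lateral element that lines paired chromosomes, was at 388, 418 and 479 CPM in 3NC and at 357, 376 and 352 CPM in the knockdown group. Spo11, which makes the breaks that start recombination, was at 43.2, 44.6 and 46.3 CPM in 3NC and at 39.4, 42.2 and 39.7 CPM in the knockdown group. These were small steps, of -0.14 to -0.24 on the log2 scale, and Terb1 and Mei4, which anchor telomeres and promote breaks, and Rad21l, another cohesin, completed the 6 at -0.29, -0.51 and -0.46. Rec8, also a meiotic cohesin, lay the other way, at 62.9, 44.7 and 60.9 CPM in 3NC and 71.3, 77.1 and 68.1 CPM in the knockdown group. Syce3, of the central element, had a log2 fold change of 0.51 (0.14 to 0.89) with an unadjusted p of 0.0121. Genes of pachytene and diplotene spermatocytes had a median of -0.05 over 20, and the 20 genes of the piRNA pathway, which silences transposons in germ cells, a median of 0.00.

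Spermatid genes lay slightly above the median of all genes. Of 27 round spermatid genes 21 were positive, with a median of 0.09, and of 24 elongating spermatid genes 17, with a median of 0.04. Without the pair of libraries that stood apart, 15 and 11 were positive and the medians were 0.01 and -0.00. Spaca4, a membrane protein of the acrosome, was at 66.4, 38.8 and 58.6 CPM in 3NC and at 75.5, 85.3 and 78.2 CPM in the knockdown group. Odf3, of the outer dense fibres of the tail, was at 88.5, 59.6 and 78.3 CPM in 3NC and at 89.0, 110 and 102 CPM in the knockdown group. Both were lowest in 3NC replicate 2, the library rich in leukocyte genes. The most abundant message, that of protamine Prm2, was at 5610, 3950 and 5350 CPM in 3NC and at 4390, 5220 and 5710 CPM in the knockdown group. Among 38 genes of the axoneme, fibrous sheath and sperm channels the median was 0.05, with Drc1, a dynein regulator, higher and Catspere1 lower in each library. The Tmprss and Prss proteases, many of them made by germ cells, had a median of 0.12 over 27 tested genes, and beside Tmprss11a only Prss41 (0.44) was higher and Prss23 (-0.41) lower with no overlap, that is 2 and 1 of 27, near the 5.03% and 6.24% of all genes. Of the relatives of Tmprss11a, Tmprss11b had a log2 fold change of 0.71 (0.02 to 1.40) and Tmprss11f of 0.52 (-0.21 to 1.24), both with overlap, and Tmprss11c, Tmprss11d, Tmprss11e and Tmprss11g were below the read minimum.

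Sertoli cell genes were level, with a median of 0.02 over 26. Wt1, a transcription factor that maintains these cells, was at 28.9, 42.5 and 31.9 CPM in 3NC and at 21.7, 28.1 and 25.4 CPM in the knockdown group, a log2 fold change of -0.46 (-0.79 to -0.13) that was -0.18 without the pair that stood apart. Clu, the secreted chaperone clusterin and the highest of the list in CPM, had 0.16 (-0.16 to 0.47). The 38 tested junction genes had a median of -0.10, with 4 lower and 1 higher with no overlap, beside 6.24% and 5.03% of all genes. Without 3NC replicate 2 the median was 0.05. Gja1, the gap junction protein connexin 43, was at 42.9, 41.1 and 40.6 CPM in 3NC and at 37.5, 37.9 and 39.7 CPM in the knockdown group. Dsp, which ties desmosomes to intermediate filaments, was at 4.83, 5.34 and 4.45 CPM in 3NC and at 3.10, 3.65 and 3.78 CPM in the knockdown group, and Jam3, an adhesion molecule, had -0.11.

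A list of 19 genes covered the proteins assayed beside the RNA, by staining or blotting of testes or cells, and 18 could be tested, all but the desmosomal cadherin Dsg2, which was below the read minimum. Of these, 5 were positive and 13 negative, with a median of -0.11, and the 95% interval of each included 0. Without 3NC replicate 2 the median turned to 0.05, and without the pair that stood apart 8 were positive. Cadm2, a cell adhesion molecule, was at 10.6, 10.8 and 13.5 CPM in 3NC and at 8.78, 9.89 and 8.97 CPM in the knockdown group, a log2 fold change of -0.34 (-0.76 to 0.08). Cadm2 and Gja1, 2 of the 18, were lower with no overlap between groups, beside 6.24% of all genes. Odf1, a main protein of the outer dense fibres, was at 1290, 849 and 1120 CPM in 3NC and at 1160, 1370 and 1520 CPM in the knockdown group, a log2 fold change of 0.31 (-0.11 to 0.73). Gdnf, the Sertoli cell factor for stem cell renewal, was at 1.32, 2.17 and 1.68 CPM in 3NC and at 1.96, 1.53 and 1.55 CPM in the knockdown group. The germ cell helicase Ddx4, the synaptonemal protein Sycp3 and the transition protein Tnp1 had log2 fold changes of -0.09 (-0.35 to 0.18), -0.11 (-0.41 to 0.18) and -0.12 (-0.45 to 0.22). Differences smaller than these intervals were not detectable at this depth and spread. Tjp1, a tight junction scaffold, had the narrowest interval of the 18 (0.08, -0.10 to 0.27) and Cdh1, the epithelial cadherin at 1.21 to 2.98 CPM, the widest (-0.38, -1.31 to 0.54).

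**Figure D5:**
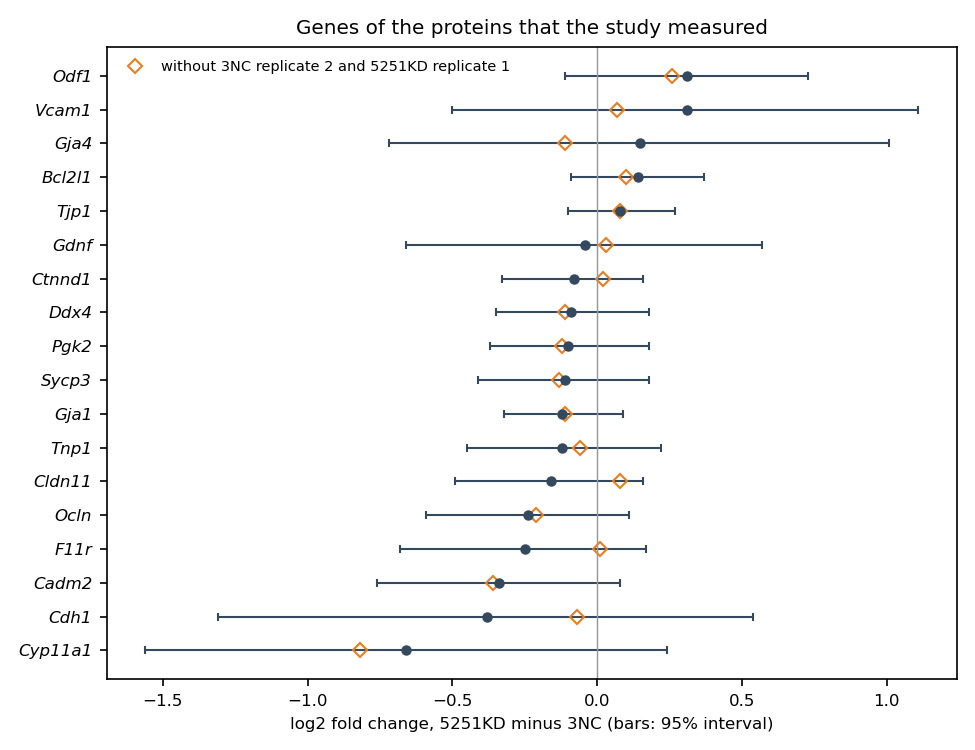
Log2 fold change, knockdown minus 3NC (x axis), with its 95% interval for 18 genes whose proteins were assayed beside the RNA. Open diamonds give the value without 3NC replicate 2 and knockdown replicate 1. All 18 intervals include 0, and Cyp11a1 lies lowest at -0.66.

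Muscle, vessel and matrix genes had medians below 0 that depended on the libraries kept. The 13 genes of peritubular myoid cells, which contract the tubule, had a median of -0.17, and the 16 endothelial genes -0.15. The endothelial median turned to 0.19 without 3NC replicate 2 and to 0.07 without the pair. Cnn1, an actin-binding protein of smooth muscle, was at 4.30, 4.60 and 3.17 CPM in 3NC and at 2.27, 3.39 and 2.43 CPM in the knockdown group, and Acta2, smooth muscle actin, had a log2 fold change of -0.17 (-0.54 to 0.20). Of 14 collagen genes 13 were negative, with a median of -0.31, and 4 were lower at an unadjusted p under 0.05, beside 3.03% of all genes. Leaving out 1 library moved that median between -0.14 (3NC replicate 2) and -0.69 (knockdown replicate 1). Col1a1, of the main fibrillar collagen, was at 36.0, 162 and 14.4 CPM in 3NC and at 31.2, 16.0 and 16.0 CPM in the knockdown group, so that 3NC replicate 2 alone stood high. Col3a1 was at 72.1, 269 and 37.1 CPM in 3NC and at 73.8, 28.0 and 27.8 CPM in the knockdown group. Without the pair that stood apart, Col1a1 and Col3a1 had log2 fold changes of -0.66 and -0.97 in place of -1.75 and -1.55, and the list a median of -0.32. Col14a1, with a log2 fold change of -0.25 (-0.61 to 0.11), was the only 1 of the 14 with no overlap, beside 6.24% of all genes that were lower in this way.

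Immune genes differed between libraries far more than between groups. Of the 19 macrophage, 15 lymphocyte, 16 antigen presentation, 17 interferon and 14 chemokine genes tested, 0 were higher and 0 lower with no overlap, beside 5.03% and 6.24% of all genes. Their medians were 0.01, -0.38, 0.08, -0.52 and -0.39. Without 3NC replicate 2 these became 1.36, 1.53, 1.81, 1.94 and 3.00, without knockdown replicate 1 they became -0.85, -1.29, -1.20, -2.14 and -1.96, and without both libraries of the pair 0.37, 0.43, 0.61, 0.87 and 1.19, so the direction depends on the libraries kept. The pair was not alike in all genes. The granzyme Gzmb, with which cytotoxic lymphocytes kill, was at 99.2 CPM in 3NC replicate 2 and 25.8 CPM in knockdown replicate 1, and Ifi44, an interferon-induced gene, at 41.8 and 5.12 CPM. The complement gene C1qa of macrophages went the other way, at 36.5 and 104 CPM. H2-Eb1, a chain of a class II molecule that presents antigen, was at 48.0 CPM in the control library of the pair but at 4.68 CPM in the knockdown one, while H2-Ab1, a chain of another class II molecule, was at 149 and 217 CPM. Cxcl1, which attracts neutrophils, was at 0.264, 1.49 and 0.202 CPM in 3NC and at 9.23, 0.797 and 1.28 CPM in the knockdown group. Outside the pair, the 2 remaining knockdown libraries had list levels of -0.21 to -0.96 and the 2 remaining controls of -0.63 to -1.46.

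Some genes of the epididymis, the duct that stores sperm beside the testis, had lower values in the knockdown libraries. Of the 22 on the list 9 had enough reads, and since genes such as Crisp1 and Adam7 passed the read minimum through the controls, where they were high, no count or median of these 9 is read as a result. Crisp1, a secreted protein that coats maturing sperm, was at 32.5, 61.5 and 26.2 CPM in 3NC and at 13.2, 0.0664 and 0.607 CPM in the knockdown group. Adam7, a membrane protein of the epididymis, was at 4.56, 7.02 and 3.50 CPM in 3NC and at 2.21, 0 and 0 CPM in the knockdown group. Spink8, a protease inhibitor, was at 5.82, 10.3 and 3.71 CPM in 3NC and at 2.91, 0.730 and 0.607 CPM in the knockdown group. Knockdown replicates 2 and 3 were near 0 and replicate 1 lay between them and the controls. Prom2, Rnase9 and Spint3 showed the same order. Rnase10 went the other way, at 2.97, 2.61 and 4.04 CPM in 3NC and 6.0, 4.18 and 5.06 CPM in the knockdown group. Of the 13 genes below the minimum, 6 had fewer reads in the knockdown group, 4 had more and 3 had none in either, with 78 reads in 3NC and 69 in the knockdown group in all. Among these 13, Lcn5 and Gpx5 were at no more than 0.135 CPM in any of the 6 libraries. Defb37 had 29 reads in 3NC and 9 in the knockdown group, while Rnase13 had 11 and 23. The amount of epididymal tissue in the samples is not stated in the labels or methods, and its part in these values was not tested.

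The remaining lists added little. Of 6 tested genes of red blood cells, Hbb-bs, a beta-globin, was at 13.0, 14.1 and 6.0 CPM in 3NC and at 3.22, 3.65 and 3.85 CPM in the knockdown group, while Hba-a1, an alpha-globin, was at 45.1, 26.5 and 14.1 CPM in 3NC and 39.6, 23.2 and 26.5 CPM in the knockdown group. Hbb-bs and other beta-globin copies are near-identical, so their reads may be shared. Immediate early genes, which respond to handling and stress within minutes, had a median of 0.11 over 15 genes. This median was 0.94 without 3NC replicate 2, -0.45 without knockdown replicate 1 and 0.31 without both, so its direction depends on the libraries kept. The 15 genes of the proteasome core had a median of -0.08 and the 8 tested genes of the Y chromosome -0.23, none of them separating the groups. On the X chromosome 25 of 745 genes (3.36%) were higher and 51 (6.85%) lower with no overlap, near the 5.03% and 6.24% of all genes.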

How the data were processed

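RNA of whole F1 testes was sequenced by the authors on an Illumina instrument after, per the methods, oligo(dT) enrichment, which the labels do not mention. The authors aligned reads to mouse genes with SOAPaligner 2.20 (build mm10 in the submitters' processing notes) and deposited estimated counts per gene, fractional for 17.3% of genes, and FPKM values per gene, which enter the alternatives here. The sources used here do not say how reads were shared among copies. The table's 18 further per-sample columns and 14 group means were not used. IDs matched RefSeq (GRCm38.p6) for 20630 genes (99.2%).

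Estimated counts were rounded and fitted with edgeR 4.0.16 in R 4.3.3 (TMM, glmQLFit, glmQLFTest) on all 12 libraries with a coefficient per group, which share 1 estimate of the spread (biological coefficient of variation 22.7%, 8 residual degrees of freedom). Genes had 10 or more reads in 3 of the 6 libraries compared. Adjustment of p-values followed Benjamini and Hochberg over all 16083 genes. The test was also run on simulated counts, but no outcome is given here, so that run supports no result above. For Purb an exact permutation test was used. No pair of libraries agreed within sampling noise (lowest chi-square per degree of freedom 3.84). Alternatives used DESeq2 1.42.0 and limma 3.58.1.

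Members and lists were chosen with earlier results of these data known. Named genes were the 12 higher and 12 lower of smallest p, in each list the 3 of smallest p and the 3 highest in CPM, the proteins the study measured, marker genes of the libraries that stood apart and genes passing without 1 library. Others, such as list members with no overlap between groups, Klk1b22, the Ott copies and Pou2af1, were chosen after their values were seen. A few list members are not reported here by name, but enter the counts and medians of their lists.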

Additional observations from a re-analysis of the deposited data

How the results depend on the processing

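The count of genes passing an adjusted p of 0.05 (edgeR) was 0 in the main analysis. The study's stricter thresholds could then only give 0 as well, which is no check. The count stayed 0 with RLE size factors, total counts, no low-count filter, filterByExpr, only the 6 libraries and the robust option. It also stayed 0 with the macrophage list as a covariate and with both libraries that stood apart left out. With limma-trend on log2 CPM, log2(FPKM + 0.1) or log2(FPKM + 1) the count was 0 too. It was 15 with DESeq2 and 1 with limma-trend on log2(FPKM + 0.1) of all genes tested (Tmprss11a). Leaving out each library in turn gave 0 to 11, with 11 without 3NC replicate 3 (among them Klk1b24, Klk1b21 and Klk1b27) and 2 without knockdown replicate 3 (Cyp21a1 and Tmem254b). The count at an unadjusted p under 0.05 moved from 899 to 1711 without 3NC replicate 1, 471 without knockdown replicate 2, 598 without knockdown replicate 3 and 2175 with the macrophage covariate. The cause was not tested. With the replicate number as a block, 0 genes passed, also with only the 6 libraries (290 at an unadjusted p under 0.05, an alternative chosen after seeing the data). Same-numbered libraries deviated with correlations of -0.61, -0.75 and 0.48. The pair that stood apart, whose numbers differ, correlated at 0.84 and weighs on these values. They therefore do not settle whether the numbers pair libraries. The 24 leading genes kept their direction in all 494 alternative values. They were chosen by p in these same libraries, so a change of direction was unlikely and this is no independent check. Of 280 list medians, 265 stayed within 1 SD between libraries, and 15 did not, 10 of them without 3NC replicate 2 (5 immune lists, undifferentiated spermatogonia, endothelial cells, cell junctions, assayed proteins and immediate early genes). The SD is each list's own and is 1.25 to 1.84 for the 5 immune lists. A move of the interferon median from -0.52 to -2.14 without knockdown replicate 1 thus counts as within it, and medians that stayed within it may still change sign. Depth limits genes under 1 CPM most, and 3 libraries a group limit all tests.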

Other observations

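In a few genes outside the comparison's leading ranks, 3NC replicate 3 differed from 3NC replicates 1 and 2. Bhmt, an enzyme that returns a methyl group to homocysteine, was at 263 and 300 CPM in 3NC replicates 1 and 2 and at 36.6 CPM in replicate 3, with 93.8, 67.7 and 94.0 CPM in the knockdown group and 103 to 117 CPM in 5NC. Itih2, which stabilises hyaluronan in the matrix, was at 46.7, 39.1 and 11.1 CPM in 3NC and at 14.3, 15.5 and 16.7 CPM in the knockdown group, with 32.0 to 35.9 CPM in 5NC. Atp6ap1l, related to an accessory protein of the proton pump, was at 2.91 and 2.73 CPM in 3NC replicates 1 and 2 and at 70.6 CPM in replicate 3, with 30.6, 13.6 and 36.5 CPM in the knockdown group and 31.8 to 36.6 CPM in 5NC. These genes, with Gm3417 and Gm20845, passed edgeR's test only when 3NC replicate 3 was left out.

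Tmem254b, a membrane protein gene, was at 4.10, 5.78 and 5.26 CPM in 3NC and at 0, 0 and 4.18 CPM in the knockdown group, and passed when knockdown replicate 3 was left out. Dnah8, a dynein heavy chain of the sperm tail, was at 2120, 2260 and 1270 CPM in 3NC and at 1090, 1840 and 2970 CPM in the knockdown group, so libraries of both groups differed among themselves for this abundant gene.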
